A study of Caenorhabditis elegans with 4 samples.

Results

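The X chromosome of Caenorhabditis elegans was examined as a source of peaks in control ChIP-seq, in which chromatin is recovered with an IgG not raised against any worm protein. All peaks listed on the X in 3 deposited peak lists were taken as members. They numbered 300 of the 1773 peaks in all, 26 of 153 in the list of IgG replicate 1, 115 of 789 in that of replicate 2, and 159 of 831 in the combined list of the series. The choice used the chromosome name alone and no measured value.

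Both IgG libraries came from wild-type N2 embryos of mixed stage, from a population labelled as males and hermaphrodites together, with the temperature given as 20 degrees Celsius. The embryos were crosslinked with 2% formaldehyde for 30 minutes and the chromatin was sonicated. The antibody was a commercial rabbit control IgG, which its label describes as a polyclonal antibody to mouse IgG. The series also holds 2 input DNA samples, which are not analysed here, and no treatment or mutant was compared. The labels do not say whether the 2 replicates were separate cultures, nor what share of the embryos was male.

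In C. elegans, sex follows the number of X chromosomes, with a pair in hermaphrodites and a single copy in males. In hermaphrodite embryos the dosage compensation complex, which contains condensin subunits, binds along both X chromosomes and lowers their transcription. Genes are concentrated in the middle of each autosome and repeats in its arms, a contrast that is less marked on the X. An IgG list shows where reads pile up without a specific target, and such places are commonly set aside when ChIP with a specific antibody is read.

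Coordinates below are on chromosome X of WormBase build WS220. Peak scores are those of the authors' caller, their scale is not named in the files, and they are set side by side but never compared between lists. The reads behind a peak and the depth of each library are unknown. The replicate lists were called separately, and the combined list is not independent of them. No sequence or gene is given for any peak, since no WS220 genome or annotation was used here. There is 1 list per library and neighbouring peaks are not independent, so no test was run between the X and the autosomes, and all comparisons with them are descriptions. Intervals are exact binomial 95% intervals unless named otherwise, and they cover counting error only.

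Peaks on the X were gathered into fewer places than on the autosomes in replicate 2 and in the combined list. When peaks separated by gaps of at most 2 kb were joined, the 159 combined X peaks formed 71 regions, or 4.01 per Mb, and the 5 autosomes had 4.46 to 6.002 per Mb. The 115 replicate 2 peaks formed 63 regions, 3.56 per Mb against 4.85 to 6.403 per Mb on the autosomes. In replicate 1 the 26 X peaks formed 21 regions, 1.19 per Mb, within the autosomal range of 0.73 to 1.78. Each combined region on the X held 2.24 peaks on average, against 1.51 to 1.58 on the autosomes. Without the densest stretch of the X, described below, it was 1.86. The replicate 2 figure was 1.83 peaks per region, within the autosomal range of 1.31 to 1.89, and 1.60 without that stretch. The number of peaks per Mb differed between these lists. In the combined list it was 8.99 on the X, near the top of the autosomal range of 7.01 to 9.09. In replicate 2 it was 6.50 on the X, with 4 of the 5 autosomes higher at 6.81 to 9.89 and chromosome I at 6.44. In that list the X held 14.6% of the nuclear peaks (12.2 to 17.2%) on 17.7% of the summed extent, so both its peaks and its regions were few. The order of the X below every autosome in regions per Mb held in both of these lists when the joining distance was 1 kb or 5 kb.

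**Figure D1:**
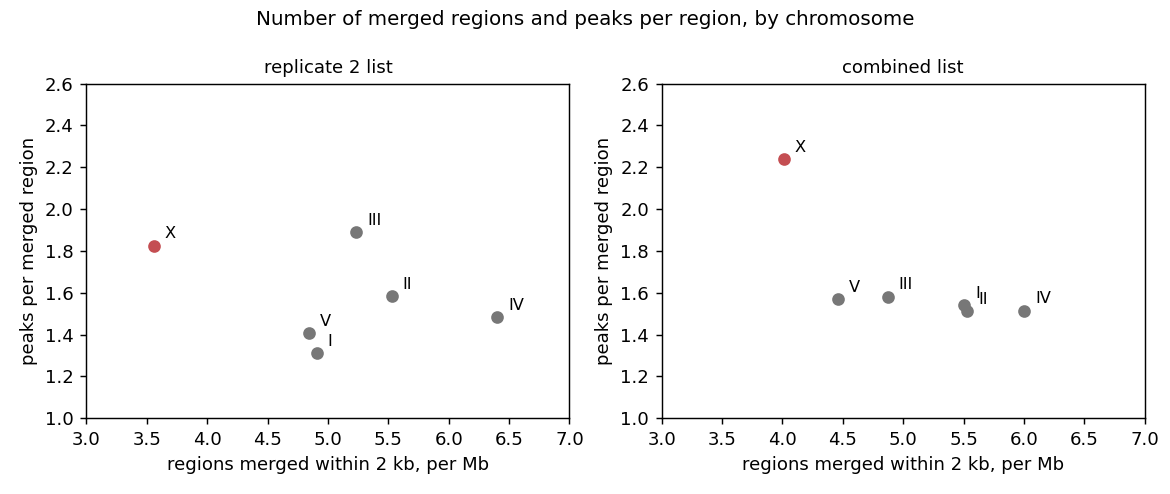
Number of regions per Mb of chromosome (horizontal axis) against the mean number of peaks per region (vertical axis), for replicate 2 (left) and the combined list (right), each point a nuclear chromosome and the X in red. Regions are peaks joined across gaps of at most 2 kb. The X has the fewest regions per Mb in both lists, 3.56 and 4.01. In the combined list it has the most peaks per region, 2.24, or 1.86 without its densest stretch.

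Dense runs, defined as at least 3 successive peaks with gaps of at most 2 kb, held 89 of the 159 combined X peaks, 56.0% (47.9 to 63.8%). Over all nuclear chromosomes the share was 37.9%, and on single autosomes 26.8 to 40.6%. Replicate 2 had 55 of 115 X peaks in such runs, 47.8% (38.4 to 57.3%), against 33.1% over all nuclear chromosomes. Chromosome III, at 47.1%, was as high as the X in that list, and the other 4 autosomes lay at 23.9 to 31.6%. Replicate 1 had a single run on the X, holding 3 of 26 peaks (11.5%), close to the 11.8% found over all nuclear chromosomes.

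The stretch described next, the densest of the X, held 31 of the combined peaks. Without it, 60 of 128 combined X peaks lay in runs (46.9%), still above every autosome, and 39 of 99 replicate 2 peaks (39.4%), then below chromosome III. The median gap between successive combined X peaks was 698.5 bp, against 23872 to 54257 bp on the autosomes, and 11226 bp without that region. Of the combined gaps on the X, 55.7% were at most 2 kb, against 34.1 to 37.1% on the autosomes, and 46.5% without the region. The replicate lists did not share this contrast. In replicate 2 the median X gap was 20876 bp, within the autosomal 3092 to 48062 bp, and 52830.5 bp without the region. Gaps of at most 2 kb made up 45.6% there, within the autosomal 24 to 47.4%, and 37.8% without the region. In replicate 1 the median X gap, 275063 bp, was within the autosomal 220944 to 633939 bp.

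**Figure D2:**
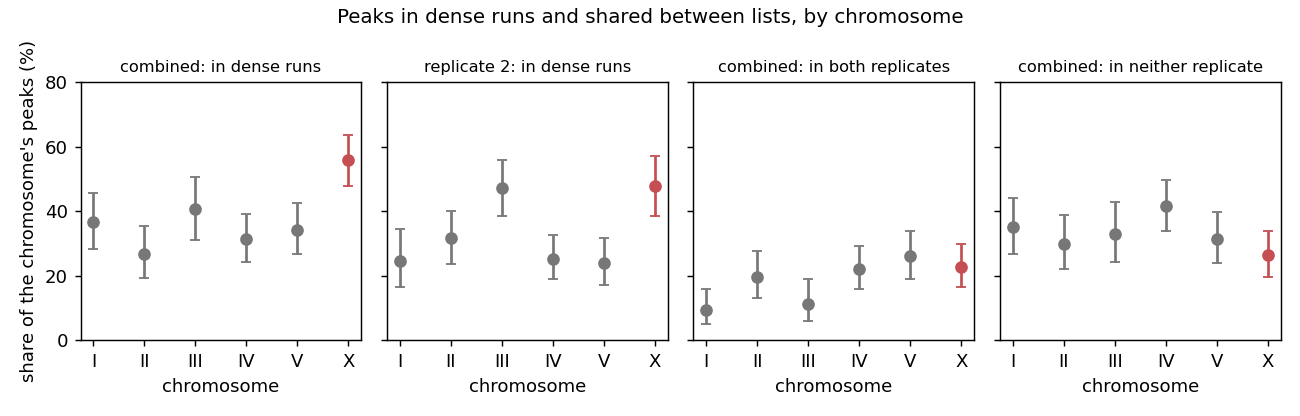
Share of each nuclear chromosome's peaks (vertical axis, %) that lie in dense runs in the combined list and in replicate 2, and share of combined peaks that overlap both or neither replicate list. Points are shares, bars exact 95% intervals, and the X is red. The X has the highest share of combined peaks in runs (56.0%) and the lowest share found in neither replicate (26.4%). Without its densest stretch these are 46.9% and 32.8%, the latter within the autosomal range.

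The densest region of the X spanned 30520 bp, from 4025960 to 4056479. Replicate 2 covered it almost without a break, with 16 peaks over 29301 bp (96.0% of the span), separated by gaps of 2 to 448 bp with a median of 28 bp. Its peaks there scored from 72.52 to 1776.13, and the widest X peak of the list, 6682 bp at 4032528 to 4039209, was among them with a score of 1160.17. Replicate 1 had 2 peaks in it, both in the right part. One of these, at 4043794 to 4053377, was 9584 bp wide and had the highest replicate 1 score on the X, 185.67. The other lay at 4054251 to 4056448 and scored 89.92. From 4025960 to the start of the first of these, the region had replicate 2 peaks and no replicate 1 peak.

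The combined list broke the same stretch into 31 short peaks covering 17007 bp, with scores of 1.43 to 9.21. Of these, 29 formed 1 run from 4033179 to 4056399, the longest run of any nuclear chromosome in that list. Their widths ran from 147 to 1787 bp with a median of 441 bp, and successive starts were 662.5 bp apart at the median. The other 2 lay at 4026135 to 4026442 (score 8.48) and 4026921 to 4027711 (4.46), and no combined peak stood between 4027711 and 4033179, where replicate 2 had several. The single 9584 bp peak of replicate 1 corresponded to 4 replicate 2 peaks of 9527 bp in all and to 14 combined peaks of 6956 bp. Its outer edges in the replicates agreed closely, with starts at 4043794 and 4043795 and ends at 4053377 and 4053366. In all, the region held 35.7% of the X length covered by peaks in replicate 1, 23.4% in replicate 2 and 31.2% in the combined list.

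The next richest place on the X had a different form in the replicate lists. There 15 combined peaks formed a run of 9644 bp, from 7351653 to 7361296, with widths of 146 to 1036 bp and a highest score of 9.39. Replicate 2 had 10 narrow peaks within 8028 bp, from 7353242 to 7361269, of 232 to 488 bp each and with scores of 63.49 to 151.88. They covered 37.5% of their span, against 96.0% in the densest region. The combined list showed little such contrast, with 66.8% of this run's span covered and 68.5% of that of the 29-peak run. Median widths there were 375 and 441 bp. Replicate 1 had 3 peaks, at 7354335 to 7354748 (94.66), 7357148 to 7357342 (58.28) and 7359462 to 7359744 (67.51). Of these, only the middle one overlapped a replicate 2 peak, and all 3 overlapped combined peaks. In the combined and replicate 2 lists, these were the runs with the most peaks on the X after the densest region, although a chromosome III run of replicate 2 also held 10 peaks.

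**Figure D3:**
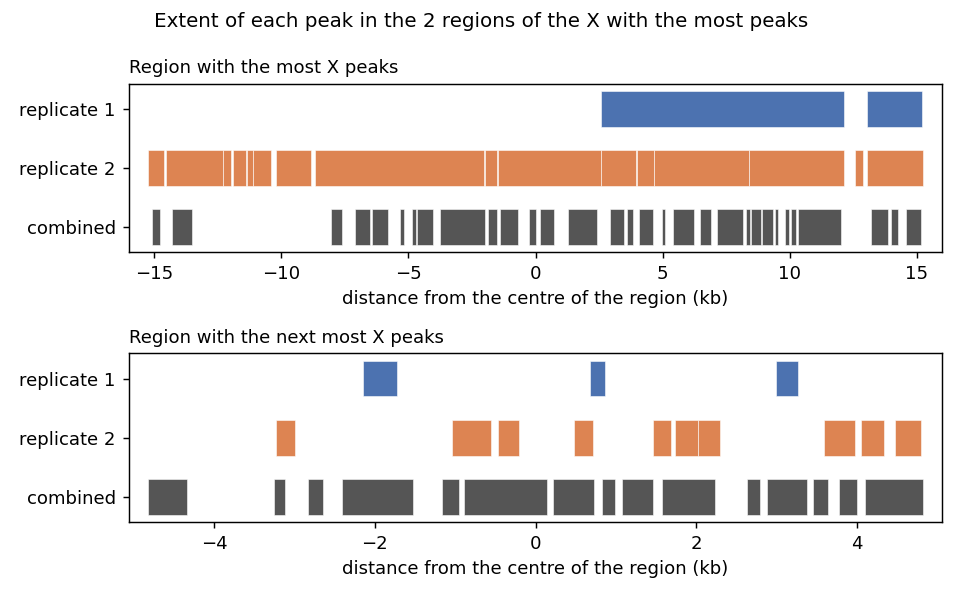
Extent of every peak in the 2 regions of the X with the most peaks, as distance from the region's centre (horizontal axis, kb), with a row for each list and white lines between neighbouring peaks. In the upper region replicate 2 covers 96.0% of the span, replicate 1 only the right part, and the combined list is broken into 31 peaks. In the lower region the peaks of both replicates are narrow, and those of the combined list run from 146 to 1036 bp.

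Further runs of at least 5 peaks differed in which lists had them. In replicate 2 such runs stood at 1136172 to 1140726, 2056911 to 2063844 and 5045419 to 5052903, with 6 peaks each. The last covered 6416 of 7485 bp, with scores up to 407.16, yet neither replicate 1 nor the combined list had a peak in it. The run at 1136172 held 2 combined peaks and no replicate 1 peak, and that at 2056911 held 3 and 2. In the combined list, runs of 5, 7 and 6 peaks stood at 110362 to 113828, 289985 to 295152 and 15808317 to 15810946. Each of these 3 lay within a single wide replicate 2 peak and had no replicate 1 peak. The only replicate 1 run, 3 peaks at 17443255 to 17446375, overlapped 2 replicate 2 peaks and no combined peak. Of the 13 combined runs on the X, all 13 overlapped a replicate 2 peak and 8 also a replicate 1 peak. Of the 8 replicate 2 runs, 6 held a combined peak and 5 a replicate 1 peak. The same counts for autosomal runs are not given here, so these are not read as particular to the X.

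Along the X, peaks were densest towards the left in replicate 2 and the combined list. With the X divided into 10 sections of equal length, up to its highest peak end at 17692729, the first held 36 combined peaks (22.6%) and the third 34 (21.4%). The fifth section followed with 23, while the fourth held 1 and the eighth 4. In replicate 2 the first 3 sections held 22, 18 and 25 of 115 peaks, and the fourth held 3. In replicate 1 no section held more than 5 of 26 peaks.

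Of the 34 combined peaks in the third section, 31 lay in the densest region. Joined within 2 kb it held 4 combined regions, while the first held 20 and the last 13. Left of the chromosome's midpoint lay 104 of 159 combined peaks (65.4%, 57.5 to 72.8%) and 80 of 115 replicate 2 peaks (69.6%). Single autosomes had 42.8 to 58.3% and 45.2 to 59.4%. In joined regions it was 37 of 71 in the combined list (52.1%), within the autosomal 46.3 to 54.8%. Replicate 2 had 37 of 63 regions there (58.7%), just above the autosomal 44.6 to 58.3%. Replicate 1 had 14 of 26 peaks on the left side (53.8%, autosomes 45.2 to 53.8%). Counted as regions rather than peaks, the combined list was nearly even between the left and right sides.

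**Figure D4:**
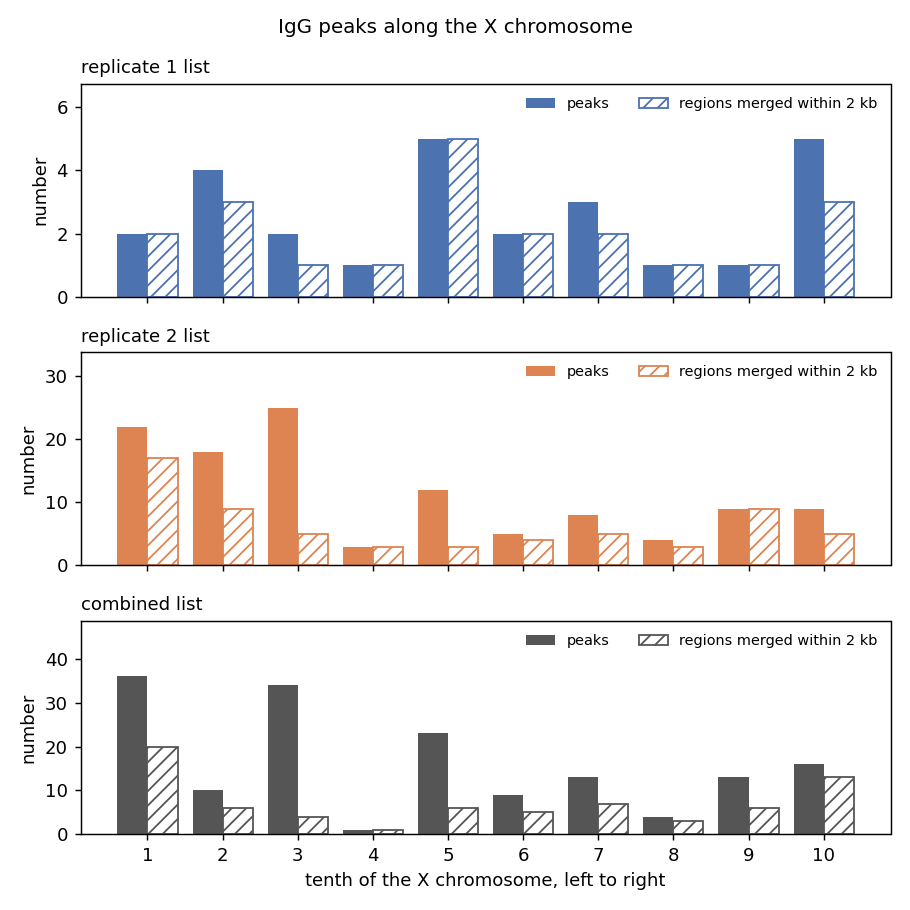
Number of peaks (solid bars) and of regions joined within 2 kb (hatched bars) in each of 10 equal sections of the X from left to right, one panel per list with its own vertical scale. In the combined list the first section holds 36 peaks in 20 regions, and the third 34 peaks in 4 regions.

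The longest stretches without a combined peak were 1421832 bp from 12278861 to 13700694, 1239524 bp from 5056869 to 6296394, and 999992 bp from 4056399 to 5056392. Each of these held at least 1 replicate 2 peak, but only the stretch from 12278861 also held a replicate 1 peak. The first held 1 replicate 1 and 1 replicate 2 peak, the second 1 replicate 2 peak, and the third 6 replicate 2 peaks, those of the run at 5045419. The longest empty stretch of replicate 2, 1515024 bp from 12280002 to 13795027, largely coincided with the first of these.

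At the left end, replicate 2 had a peak at 1 to 301 with a score of 410.56, rank 113 of 789. This was not particular to the X, since in that list the first peak began at base 1 on 4 autosomes and at base 4 on chromosome V, with scores of 169.66 to 731.25. The leftmost combined peak lay at 14146 to 14303 (score 4.75) and the leftmost replicate 1 peak at 189237 to 189889 (75.71). The lists therefore differed in where the X began to carry peaks.

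The first 1 Mb held 24 combined X peaks, 15.1% of those on the chromosome, against 2.83 to 8.18% on the autosomes. In joined regions it was 12 of 71 (16.9%), against 4.48 to 11.4%. Replicate 2 had 9 of 115 X peaks there (7.83%), within the autosomal range of 1.41 to 12.5%. Each was a region of its own, so in joined regions the share was 9 of 63 (14.3%), above the autosomal 1.98 to 11.1%. Replicate 1 had 2 of 26 peaks there (7.69%, autosomes 0 to 10%) and 2 of 21 regions (9.52%, autosomes 0 to 11.1%). Both shares were within the autosomal ranges.

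At the right end, the last combined peak lay at 17692557 to 17692729 (3.38) and the last replicate 2 peak at 17690690 to 17690965 (62.17). The last replicate 1 peak, at 17445788 to 17446375 (88.01), closed its only run, 246354 bp short of the highest peak end. The final 1 Mb before that end held 12 combined, 9 replicate 2 and 5 replicate 1 peaks. As shares of peaks, 7.55%, 7.83% and 19.2%, these were within the autosomal ranges. In joined regions the X had 12.7% in the combined list (autosomes 5.38 to 16.4%) and 7.94% in replicate 2 (1.98 to 11.9%). In replicate 1 it had 3 of 21 regions (14.3%), above the autosomal 0 to 11.1%. The true chromosome end is not in the files, so these distances are lower limits.

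Replicate 1 peaks on the X were found again in replicate 2 about as often as elsewhere. Of 26 peaks, 18 overlapped a replicate 2 peak, 69.2% (48.2 to 85.7%), against 74.5% over all nuclear chromosomes. From the other side, 21 of 115 replicate 2 peaks overlapped a replicate 1 peak, 18.3% (11.7 to 26.5%), against 15.7%.

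Fewer replicate 1 peaks held a combined peak on the X, 18 of 26 or 69.2%, than over all nuclear chromosomes, 83.0%, and each autosome lay at 76.7% or more. The interval of the X share, 48.2 to 85.7%, includes the overall value. Of the replicate 2 X peaks, 55 held a combined peak, 47.8% (38.4 to 57.3%), against 44.2%.

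Combined X peaks overlapped both replicate lists in 36 of 159 cases, 22.6% (16.4 to 29.9%), against 19.2% over all nuclear chromosomes. Replicate 2 alone was overlapped by 73 (45.9%, against 44.2%), replicate 1 alone by 8 (5.03%, against 3.64%), and neither by 42 (26.4%, 19.7 to 34.0%, against 33.0%). The share in neither list was below that of each autosome, 29.9 to 41.5%. The densest region held 17 of the 36 peaks found in both. Without it, 19 of 128 combined peaks overlapped both lists (14.8%) and 42 overlapped neither (32.8%), which lies within the autosomal range.

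When X peaks of the 3 lists were joined wherever they overlapped, 155 loci resulted, of which 11 had a peak in every list (7.10%). Their joined widths had a median of 1955 bp and ran from 453 to 9584 bp, and 3 of the 11 were under 1 kb. Joining overlapping peaks itself widens a locus that several lists share. Another 35 were in replicate 2 and the combined list, 5 in the 2 replicates alone, and 6 in replicate 1 and the combined list. The most numerous classes were loci of replicate 2 alone, 54 (median 485 bp), and of the combined list alone, 42 (189.5 bp), and the smallest was replicate 1 alone, with 2. The single-list loci of replicate 1 lay at 1836411 to 1836977 and 14377463 to 14377715, with scores of 51.07 and 59.98. No autosomal counts stand beside these loci, so their split between lists cannot be read as particular to the X.

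Where a replicate 1 peak and a replicate 2 peak on the X matched one to one, in 12 pairs, their edges differed by 29.5 bp at the median, and 15 of 24 edges lay within 50 bp of each other. The 89 such pairs on the autosomes had a median of 30.5 bp. One pair with near-identical edges was 12277151 to 12278274 in replicate 1 (score 146.63) and 12277152 to 12278278 in replicate 2 (165.83), yet no combined peak overlapped it. Only 2 replicate 1 peaks on the X scored higher. Over the 16 loci with peaks in both replicates, the summed widths ranked alike, with Spearman's rho of 0.94, given as a description over loci that share the 2 libraries.

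The 10 highest scoring combined X peaks with a partner in both replicates came from 5 places. The densest region gave 5 of them, at 4044146 to 4044718 (combined score 8.77), 4045312 to 4045835 (8.74), 4049720 to 4050081 (7.09), 4050144 to 4050564 (7.04) and 4046628 to 4047465 (6.84). All 5 lay within the same 9584 bp replicate 1 peak, so they are not separate findings in that library.

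The combined peak at 3076260 to 3076713 (7.32) matched a 587 bp replicate 1 peak of score 73.37 and a 1216 bp replicate 2 peak of score 359.38. At 9186537 to 9187056 (7.13) the partners were much wider, with 4089 bp and a score of 109.95 in replicate 1, and 3858 bp and 3037.49 in replicate 2. The peak at 7356698 to 7357195 (6.95) belonged to the run of 15 combined peaks described above. It had the weakest partners, 58.28 in replicate 1 and 72.89 in replicate 2. The last 2, at 16759178 to 16759983 (6.79) and 16758481 to 16758997 (6.16), shared a 2524 bp replicate 1 peak (175.10) and a 1764 bp replicate 2 peak (290.11). These places thus ranged from narrow to wide peaks, with no common extent.

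The highest scores on the X stood at different places in the 3 lists. In replicate 2 the top X peak was 4869 bp wide, at 109473 to 114341, with a score of 3100 that 7 peaks of that list share. It had no replicate 1 peak, and its 5 combined peaks scored up to 4.41, where the median nuclear score of the combined list was 4.19. Next came 9184902 to 9188759 (3037.49), 15807432 to 15811288 (2329.71), 4049621 to 4053366 (1776.13) and 4026655 to 4028915 (1463.47).

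In replicate 1 the top X peak was that of the densest region (185.67, rank 15 of 153), followed by 16758316 to 16760839 (175.10), 12277151 to 12278274 (146.63), 9184893 to 9188981 (109.95) and 7077387 to 7079271 (105.88). The last of these matched a replicate 2 peak of 1844 bp and score 1293.14 and 4 combined peaks. So 2 of the replicate 1 top 5, at the densest region and at 9184893, overlapped a member of the replicate 2 top 5.

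In the combined list the top X peaks were 16851904 to 16852119 (10.27, rank 42 of 825), 6296394 to 6296654 (10.25), 14525671 to 14525881 (9.84), 7355586 to 7356621 (9.39) and 4036560 to 4037184 (9.21). The first matched a 274 bp replicate 2 peak of score 90.72, the second a 270 bp replicate 1 peak of score 71.34, while the peak at 14525671 had no replicate peak. The other 2 belonged to the 2 longest runs. No combined peak on the X reached the highest score of any autosome, which was 15.50 to 52.39.

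Within each list, X peaks as a group did not all sit on the same side of the median nuclear score. In replicate 2, 70 of 115 exceeded it, 60.9% (51.3 to 69.8%), against 49.9% over all nuclear chromosomes and 41.9 to 55.6% on single autosomes. In the combined list it was 84 of 159, 52.8% (44.8 to 60.8%), against 49.8%, and in replicate 1 11 of 26, 42.3% (23.4 to 63.1%), against 49.7%. Without the densest region the replicate 2 share was 57.6%. The median replicate 2 score on the X was 136.47, against 86.67 to 117.54 on the autosomes, and 131.26 without that region.

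X peaks of replicate 2 had a higher median width than those of each autosome, 562 bp against 408.5 to 519 bp. Outside the densest region the X median was 540 bp. The mean width did not follow this order, with 1088.23 bp on the X and 1182.66 bp on chromosome I. In that list 30.4% of X peaks exceeded 1 kb, against 14.5 to 29.9% on the autosomes, and 27.3% without the region, which falls inside that range. In replicate 1 the X median was 577 bp, and in the combined list it was 241 bp. These lay within the autosomal ranges of 421.5 to 961 bp and 207 to 257 bp. Wider X peaks had higher scores in replicate 2 (Spearman's rho 0.82 over 115 peaks), less so in replicate 1 (0.69 over 26) and least in the combined list (0.33 over 159). The autosomes had 0.74 to 0.81 in replicate 2 and 0.13 to 0.37 in the combined list, close to the X, and 0.09 to 0.51 in replicate 1. These coefficients are descriptions within each list, since the caller computes score and width from the same reads.

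**Figure D5:**
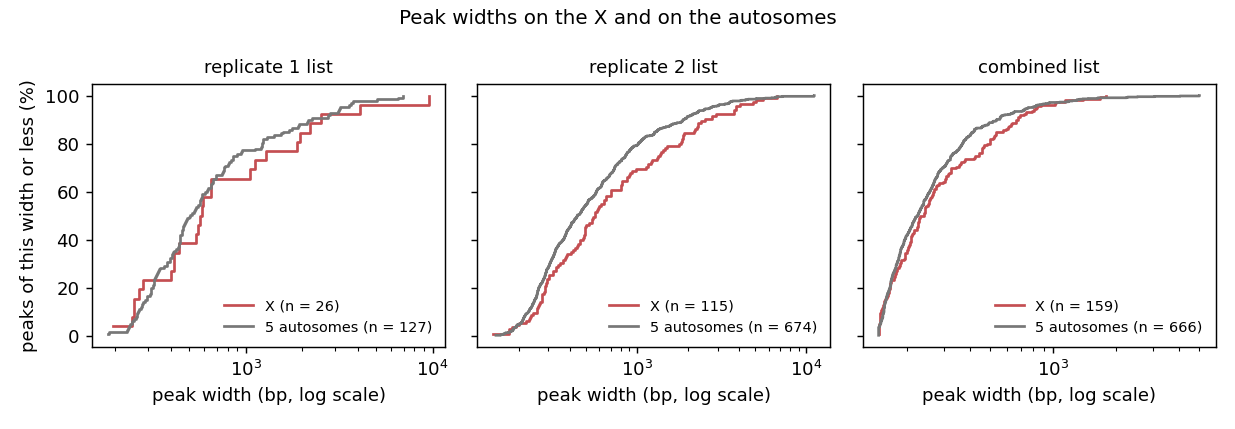
Cumulative share of peaks (vertical axis, %) by peak width (horizontal axis, bp, log scale) on the X (red) and on the 5 autosomes together (grey), in each list. In replicate 2 the X curve lies to the right, with a median of 562 bp against 445 bp. Replicate 1 medians are 577 and 501 bp, and combined medians 241 and 224.5 bp.

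Replicate 2 peaks on the X often held more than 1 combined peak. Of the 55 that held any, 26 held at least 2 (47.3%), against 16.2 to 30.3% on single autosomes. Without the densest region it was 19 of 45 (42.2%). At least 4 were held by 9 of the 55, against 15 of 294 on the autosomes together and 7 of 61 on chromosome V. Among the 18 replicate 1 X peaks with a combined peak, 8 held at least 2 (44.4%), against 5.56 to 35.7% on the autosomes. Without the densest region it was 6 of 16 (37.5%), close to chromosome IV at 10 of 28 (35.7%). Some wide peaks held none. The replicate 2 peaks at 1752217 to 1755134 (2918 bp, score 856.84) and 5913286 to 5915664 (2379 bp, score 136.47) were 2 such peaks. The source fields of the lists name MACS for the replicates and MACS v2 for the combined list, and the part of the caller in these differences was not tested.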

How the data were processed

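The authors deposited peak lists for 2 IgG ChIP libraries and 1 combined list. Per the file headers the build is WormBase WS220. The caller written in the source field is MACS in either replicate list, but MACS v2 in the combined one. How the combined list was made, the aligner, the control and the threshold: not given in the sources used here. The deposited score of each peak is the authors' and was used within its own list. Read depth is unknown, and its precision cannot be stated.

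Peaks were read in Python 3.11.15 using pandas 2.3.3, intervals computed with SciPy 1.17.1, and arrays handled by NumPy 2.4.6. Matplotlib 3.10.9 drew the figures. No list had overlapping peaks of its own. Peaks sharing at least 1 bp overlapped. A gap is the number of bases between successive peaks. Sections used midpoints and the highest peak end of any list as the extent. The interval functions were tested on simulated data. The combined list's 6 mitochondrial peaks were left out of the background.

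Named regions are the 10 highest scoring combined X peaks in both replicates, the top 5 of each list, runs of at least 5 peaks, the end peaks and the 3 longest combined gaps. Other regions were named after their values were seen. The members and rules were chosen with earlier results of these data known. Alternatives changed the overlap, the run definition, the score filter and the list, and left out the densest region.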

Additional observations from a re-analysis of the deposited data

How the results depend on the processing

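Of 48 comparisons with an alternative, 27 stayed within the exact 95% interval of the reported value. For the median width this was an order-statistic interval, and for regions per Mb a Poisson interval. Some alternatives put a replicate list, whose source field names MACS rather than MACS v2, in place of the combined list. The lists differ in number and width of peaks, so this tally does not measure the effect of settings alone. The share of combined X peaks in runs was 39.0% with at least 5 peaks to a run and 46.9% without the densest region. Single replicate lists gave 11.5 to 47.8%. The share of combined peaks in both replicates was 30.2% with peaks within 500 bp counted as shared and 14.8% without the densest region. The third section's share was 8% for the highest scoring peak per 10 kb, 5.63% for regions joined within 2 kb, 2.34% without the densest region and 7.69 to 21.7% in single replicate lists. The first section's share was 7.69 to 19.1% in those lists. Left of the midpoint lay 53.3% per 10 kb, 52.1% of joined regions, 57.0% without the densest region and 53.8 to 69.6% in single lists. The share within 1 Mb of either end was 22.6% in the combined list and 15.7 to 26.9% in single lists. The median combined width was 205 bp outside runs and 271.5 bp at or above the median score, and 562 to 577 bp in the replicate lists. Regions per Mb were 1.19 to 3.56 in the replicate lists. What lies behind each shift: the cause was not tested. The alternatives for the midpoint, for regions per Mb and without the densest region were added after seeing the data. No paired analysis was possible because no input files were used here and 1 group has lists. Depth is unknown, so a missing peak in a list cannot be read as missing signal.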
